A study of Drosophila melanogaster with 20 samples.

Results

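Glutathione S-transferases (GSTs) were followed in larval fly eye discs carrying human proinsulin transgenes. The family was taken as every gene whose array symbol begins with GstD, GstE, GstO, GstS, GstT or GstZ, the delta, epsilon, omega, sigma, theta and zeta classes, with GstE14, known for ecdysteroid synthesis, left out. This gave 33 of the 11983 genes that had a probe set of their own. They were 11 delta, 12 epsilon, 3 omega, 1 sigma, 4 theta and 2 zeta genes, and each was read from its probe set of highest mean.

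GSTs join the tripeptide glutathione to reactive or foreign compounds, which marks them for export, and some reduce peroxides. The delta and epsilon classes are expanded in insects, lie in gene clusters and are best known from insecticide resistance, and GstD1 is a common reporter of the oxidative stress factor cap-n-collar. The other classes have relatives in vertebrates, among them the zeta class, whose enzymes isomerise maleylacetoacetate in tyrosine breakdown.

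Proinsulin, the precursor of insulin, is folded in the endoplasmic reticulum, and the C96Y form lacks a cysteine that normally pairs in a disulphide bond. Transgenes were driven by GMR-GAL4, which is active behind the morphogenetic furrow, so that whole discs also held cells without expression. The groups were C96Y discs of the transgenic lines Mut-1 and Mut-101, wild-type proinsulin discs of the transgenic lines WT-6 and WT-24, and non-transgenic discs, whose labels also list GMR-GAL4. Per the labels, transgenic flies were hemizygous for the transgene and were kept at 25 °C, and discs were dissected in the third larval instar, with 2 arrays of males and 2 of females per line and 20 arrays in all. The transgene's own level was not analysed here.

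The linear array intensities had array means between 1194 and 1250 units. A probe set's signal depends on its probes, so values were compared between discs and never between genes. Where 4 values are given for a line, the male arrays stand before the female arrays. Each change is given as a log2 fold change and its standard error (SE), fitted with limma, a linear model whose gene variances are moderated over all probe sets, and a change was called at a Benjamini-Hochberg adjusted p under 0.05 over 10263 probe sets. That error comes from arrays sharing a line and a sex, not from different transgenic lines, and the labels call these arrays biological replicates. In whole discs, fewer cells of a type and less RNA per cell cannot be told apart. All 11 eye disc markers, among them gl and elav of the differentiating eye, were tested. Their summed intensity was 40411 to 44995 units in C96Y arrays, 42487 to 48373 units in wild-type proinsulin arrays and 44039 to 44849 units in non-transgenic arrays.

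Some arrays also held transcripts of other tissues. The 3 fat body markers on the array summed to 30349 units in non-transgenic male replicate 2 and to 20810 units in WT-24 female replicate 1. Both Mut-1 female arrays came next, with 5803 and 7475 units, and no other array had more than 3465 units. The 6 ring gland markers summed to between 2713 and 3481 units in C96Y arrays, between 2359 and 8668 units in wild-type proinsulin arrays and between 2353 and 8390 units in non-transgenic arrays. Some of the results that the arrays with the most fat body or ring gland transcripts touch are given with and without them.

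Of the 33 members, 25 passed the filter on dim probe sets and were tested. The other 8 were GstD4, GstD5, GstD6, GstD7, GstD8, GstD11, GstE4 and GstE10, all delta or epsilon genes. GstD4, a delta gene, had a median of 120.4 units in wild-type proinsulin discs (range 95.2 to 231), and its C96Y arrays overlapped these. With no filter, none of the 8 was called between transgene groups or lines in limma, and the smallest adjusted p among them for C96Y against wild-type proinsulin was 0.0598, for GstD5, which was called lower in males than in females at -0.21 (adjusted p = 0.034). In WT-6 female replicate 2, 3 genes stood far above the other arrays of their line, with 612 units of GstD2, 212 units of GstD8 and 189 units of GstE4, against at most 282, 105 and 95.5 units in the other WT-6 arrays.

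Which family members changed with the mutant protein was asked first by setting the 8 C96Y arrays against the 8 wild-type proinsulin arrays. In this comparison 6 members rose and 2 fell, 8 of 25 tested, where 20.1% of all probe sets tested were called (11.5% higher, 8.58% lower). The 6 that rose were the epsilon genes GstE6, GstE5, GstE1 and GstE9 and the delta genes GstD1 and GstD10. The 2 that fell were the zeta genes GstZ1 and GstZ2. None of the 3 omega, 1 sigma or 4 theta genes was called. The median log2 fold change was 0.05 over the 25 members and 0.00 over all probe sets tested. With 1 mean per line, so that lines and not arrays were the samples, limma called 0 members, with 6 at an unadjusted p under 0.05, and 0 of 10263 probe sets.

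The 2 C96Y lines differed in these genes. Set against the same wild-type arrays, Mut-1 had 10 called members, 8 higher and 2 lower, where 17.9% of all probe sets were called (9.89% higher, 8.03% lower). Mut-101 had 3, all lower, where 7.38% were called (4.78% higher, 2.59% lower). These comparisons share their wild-type arrays and are therefore no independent repeats of each other. The direct comparison of Mut-1 with Mut-101 called 5 members, all higher in Mut-1, where 3.49% of all probe sets were called (2.16% higher, 1.33% lower). They were GstD1, GstD3, GstE5, GstE6 and GstE9. Without Mut-1, C96Y over wild-type proinsulin discs is Mut-101 over wild-type lines again, without the Mut-1 arrays in the spread. In it 2 members were called, GstZ1 and GstD3, both lower, and none of the 6 that rose was. This count stands without the share over all probe sets and is not read as particular to the family. With Mut-1 left out GstE6, GstE5, GstE1 and GstD10 had log2 fold changes of 1.09, 0.30, 0.19 and 0.32.

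Markers of cell types were read in both C96Y lines as well. In Mut-1 over wild-type lines 5 of 11 eye disc markers, 2 of 2 tracheal markers and 1 of 5 muscle markers were lower, and in Mut-101 over wild-type lines 0 of 11, 1 of 2 and 0 of 5 were lower. Of all probe sets, 8.03% were lower in Mut-1 and 2.59% in Mut-101. Of 4 glial markers 1 was lower and 1 higher in Mut-1, and 0 were lower and 1 was higher in Mut-101. Of all probe sets, 9.89% were higher in Mut-1 and 4.78% in Mut-101. Of 6 haemocyte and 5 neuroblast markers, 1 of each was lower in either line. None of the 3 fat body markers was called in either line, with median log2 fold changes of 0.61 in Mut-1 and -0.03 in Mut-101. The summed eye disc markers were 40411 to 42489 units in Mut-1 arrays and 42568 to 44995 units in Mut-101 arrays. The direct comparison called 1 of the 11, pros, a gene of cone and R7 cells, lower in Mut-1 at -0.997 ± 0.135 (SE), adjusted p = 0.000867 (limma). It called none of the tracheal, muscle or other tissue markers, where 1.33% of all probe sets were lower. The line with the higher GST genes thus also had the lower sum of eye disc markers, and the part of these cells in the GST values was not tested.

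**Figure D1:**
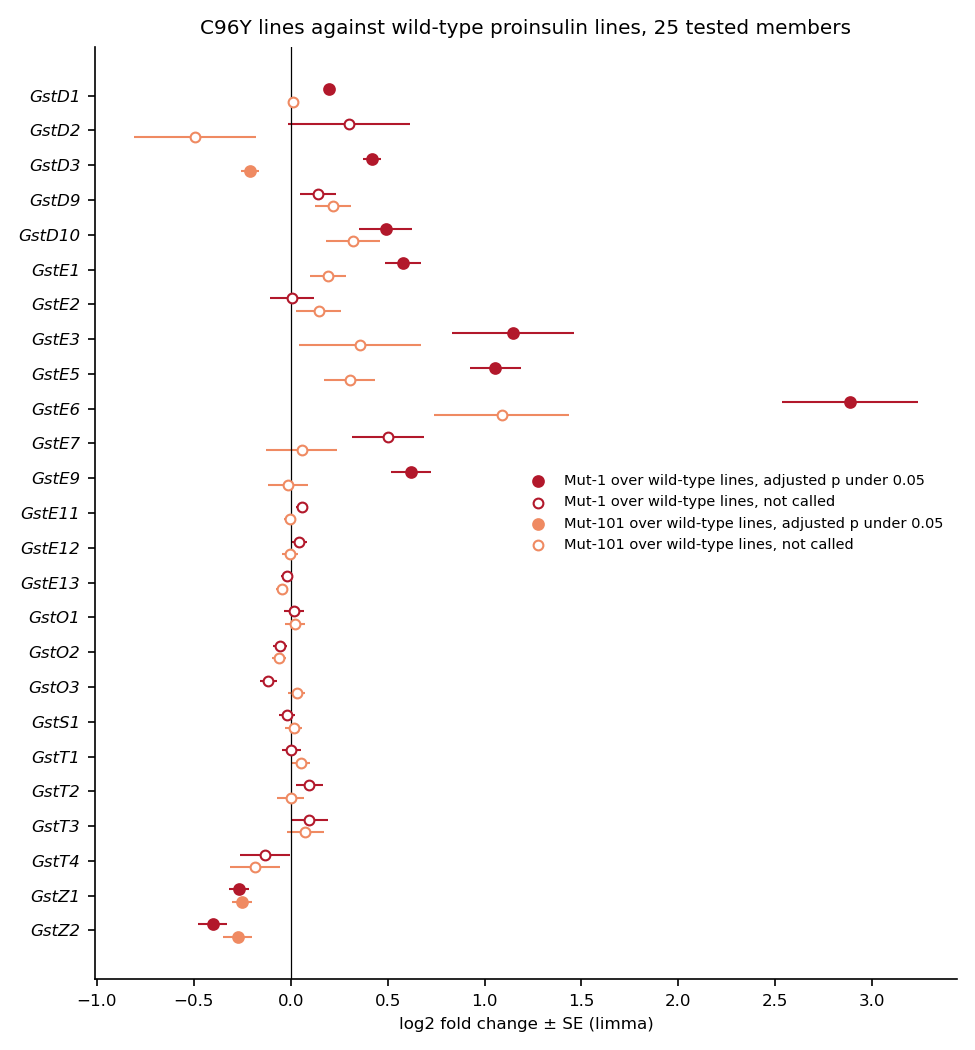
Log2 fold change with its SE (limma) of each of the 25 tested members, for Mut-1 (dark) and Mut-101 (light) over the mean of both wild-type proinsulin lines. Filled points passed an adjusted p under 0.05. Apart from GstE2, the tested GstE cluster genes lie right of 0 in Mut-1, between 0.50 for GstE7 and 2.89 for GstE6, while GstZ1 and GstZ2 lie left of 0 in both lines.

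The epsilon genes fall into a cluster on chromosome arm 2R, of which GstE1 to GstE3, GstE5 to GstE7 and GstE9 were tested here, and 3 tested genes elsewhere on the arm, GstE11, GstE12 and GstE13. All 7 tested cluster genes had a positive log2 fold change in C96Y discs, with a median of 0.39, and 4 of them were called, where 11.5% of all probe sets were called higher. The 3 genes outside the cluster had values between -0.03 and 0.03, and none was called. The cluster genes are described first because the largest changes of the family lay there. None of the 7 was called in wild-type proinsulin discs against non-transgenic discs, where 0.107% of all probe sets were called, so that this 0 says nothing particular of the cluster.

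GstE6 encodes an epsilon-class transferase and had the largest fold change of the family. Mut-1 discs had 1647, 2215, 1389 and 1479.6 units and Mut-101 discs 617, 511, 358 and 453 units, against 268, 176, 238 and 193 units in WT-6 discs, 137, 926, 158 and 145 units in WT-24 discs and 229, 227, 218 and 193 units in non-transgenic discs. Every C96Y array lay above every array without C96Y except WT-24 male replicate 2, and every Mut-1 array lay above all others. GstE6 rose 3.96-fold in C96Y over wild-type proinsulin discs, a log2 fold change of 1.99 ± 0.29 (SE), adjusted p = 0.000405. Against non-transgenic discs its log2 fold change was 2.04 ± 0.35 (SE), adjusted p = 0.00242.

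The WT-24 array with 926 units of GstE6 was also the array with the highest ring gland signal, with 3742 units of sad, an ecdysteroid enzyme gene of that gland. The other arrays with high sad had no high GstE6. WT-24 female replicate 2, non-transgenic male replicate 1 and WT-6 female replicate 1 had 2201, 2033 and 1400.0 units of sad, and 145, 229 and 238 units of GstE6. In Mut-101 against wild-type lines the GstE6 difference of 1.09 ± 0.35 missed the threshold in limma (adjusted p = 0.0777). Without WT-24 male replicate 2 it was 1.43 ± 0.13 (SE), adjusted p = 6.48e-05, and in C96Y over wild-type proinsulin discs 2.33 ± 0.11 (SE), adjusted p = 4.97e-08.

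Within each sex GstE6 gave 2.08 ± 0.11 (SE), adjusted p = 2.66e-05, in females, and 1.90 ± 0.51 (SE), adjusted p = 0.0804, in males, where the array of 926 units lies. In females alone GstE6 was also called higher in Mut-101 over wild-type lines, at 1.16 ± 0.13 (SE), adjusted p = 0.00989 (limma). The direct comparison put Mut-1 above Mut-101 by 1.80 ± 0.40 (limma, adjusted p = 0.0257). The same difference had an SE of 0.14 without WT-24 male replicate 2, the array of 926 units, which widens the pooled spread. The 2 lines that carry the same mutant protein did not overlap. This call was lost without any 1 of 6 arrays, the Mut-1 and Mut-101 arrays other than male replicate 1 of each, with log2 fold changes of 1.69 to 1.91 and adjusted p up to 0.116 (limma).

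GstE5, the neighbour of GstE6, followed with smaller values. Mut-1 discs had 426, 682, 465 and 564 units and Mut-101 discs 357, 233, 314 and 362 units, against 231, 205, 306 and 293 units in WT-6 discs, 228, 257, 272 and 247 units in WT-24 discs and 299, 311, 308 and 350.0 units in non-transgenic discs. The Mut-1 arrays lay above all 16 others, while the Mut-101 arrays overlapped every group but Mut-1. GstE5 rose by 0.68 ± 0.11 (SE), adjusted p = 0.000823, in C96Y over wild-type proinsulin discs. Its difference from non-transgenic discs was 0.36 ± 0.13 in C96Y discs and -0.32 ± 0.13 in wild-type proinsulin discs, and neither was called (limma, adjusted p = 0.0996 and 0.653). Mut-1 exceeded Mut-101 by 0.75 ± 0.15 (SE), adjusted p = 0.014, a call lost without Mut-1 male replicate 2, Mut-1 female replicate 2, Mut-101 male replicate 2 or Mut-101 female replicate 1 (adjusted p up to 0.0688).

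GstE1 encodes an enzyme that conjugates the lipid peroxidation product 4-hydroxynonenal. Mut-1 discs had 4522, 4887, 4404 and 4414 units and Mut-101 discs 3605, 3749.8, 2975 and 3673 units, against 3495, 2749, 2979 and 2605 units in WT-6 discs, 3159.9, 4323, 2471 and 2952 units in WT-24 discs and 3374, 3143, 3172 and 2778 units in non-transgenic discs. Mut-1 lay above all other arrays, and the highest of the others was again WT-24 male replicate 2. GstE1 rose by 0.39 ± 0.08 (SE), adjusted p = 0.00342, against wild-type proinsulin discs, and by 0.36 ± 0.09 (SE), adjusted p = 0.026, against non-transgenic discs (limma). The second call was lost without Mut-1 male replicate 2, Mut-101 female replicate 2, non-transgenic male replicate 2 or non-transgenic female replicate 2 (adjusted p up to 0.125). Mut-1 and Mut-101 did not overlap, but with all arrays their difference of 0.39 ± 0.11 missed the threshold (limma, adjusted p = 0.0753). Without WT-24 male replicate 2 this difference stayed at 0.39 with a smaller SE of 0.09, and it then passed the threshold. The value of C96Y over wild-type proinsulin discs was 0.44 without that array.

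GstE9, at the end of the cluster, was read by a pair of probe sets. In the brighter one Mut-1 discs had 238, 321, 192 and 263 units and Mut-101 discs 196, 163, 137 and 152 units, against 175, 173, 177 and 142 units in WT-6 discs, 165, 170.5, 148 and 152 units in WT-24 discs and 177, 182, 161 and 150.1 units in non-transgenic discs. Mut-1 stood higher, apart from its lowest array, which lay within the Mut-101 range. GstE9 rose by 0.30 ± 0.08 (SE), adjusted p = 0.0235, in C96Y over wild-type proinsulin discs, and Mut-1 exceeded Mut-101 by 0.63 ± 0.12 (SE), adjusted p = 0.00947. Without Mut-1 the C96Y value was -0.014. The C96Y call was also lost without any 1 of 5 arrays, Mut-1 male or female replicate 2, Mut-101 male replicate 1, Mut-101 female replicate 2 or WT-6 female replicate 2, with values of 0.25 to 0.36 and adjusted p up to 0.0602, and the call between the lines was lost without Mut-1 male replicate 2 (adjusted p = 0.0556).

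The second GstE9 probe set gave a larger difference. It had 295, 351, 193 and 294 units in Mut-1 discs and 175, 205, 145 and 172 units in Mut-101 discs, against 133, 126, 144 and 134 units in WT-6 discs, 126, 154, 142 and 136 units in WT-24 discs and 198, 167, 143 and 124 units in non-transgenic discs. The C96Y arrays overlapped the wild-type proinsulin arrays here through 1 of each, Mut-101 female replicate 1 and WT-24 male replicate 2. Its log2 fold change in C96Y over wild-type proinsulin discs was 0.68 ± 0.09 (SE), adjusted p = 0.000245, and for Mut-101 alone 0.34 ± 0.11 (limma, adjusted p = 0.0843).

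GstE3, a further epsilon gene of the cluster, was called in 1 comparison, Mut-1 over wild-type lines, and 1 array decides its other values. Mut-1 discs had 614, 824, 478 and 813 units and Mut-101 discs 427, 352, 351 and 417 units, against 296, 261, 288 and 334 units in WT-6 discs, 259, 271, 433 and 294 units in WT-24 discs and 258, 1334, 301 and 301 units in non-transgenic discs. Mut-1 arrays lay above all Mut-101 arrays and above all arrays without C96Y except non-transgenic male replicate 2, which was the array with the strongest fat body signal, 12077 units of the larval serum protein gene Lsp2. The highest WT-24 value, 433 units, came from the other array with fat body transcripts. GstE3 was called in Mut-1 over wild-type lines, 1.15 ± 0.32 (SE), adjusted p = 0.0229 (limma), a call lost without Mut-1 male or female replicate 2 (adjusted p up to 0.122), and not in C96Y over wild-type proinsulin discs, 0.75 ± 0.26 (SE), adjusted p = 0.0568. Without non-transgenic male replicate 2, which narrows the pooled spread, the same log2 fold change was 0.75 ± 0.12 (SE), adjusted p = 0.00123, and against non-transgenic discs the value was 0.86 ± 0.17 (SE), adjusted p = 0.0103, in place of 0.27 ± 0.32. Without both fat body arrays it was 0.82 ± 0.12 (SE), adjusted p = 0.00108, over wild-type proinsulin discs.

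GstE7 and GstE2 complete the tested cluster, and neither was called in any comparison of all arrays. GstE7 had 223, 237, 163 and 249 units in Mut-1 discs and 152, 186, 144 and 153 units in Mut-101 discs, against 182, 145, 148 and 148 units in WT-6 discs, 126, 207, 157 and 121 units in WT-24 discs and 177, 355, 149.9 and 137 units in non-transgenic discs. Its highest array was again non-transgenic male replicate 2, and Mut-1 over wild-type lines gave 0.50 ± 0.18 (limma, adjusted p = 0.0788). Without WT-24 male replicate 2, the highest WT-24 array of this gene, the Mut-1 value was 0.59 ± 0.18 (SE) and passed the threshold. GstE2 stayed between 166 and 311 units over all 20 arrays, and its difference between C96Y and wild-type proinsulin discs was 0.08 ± 0.09.

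**Figure D2:**
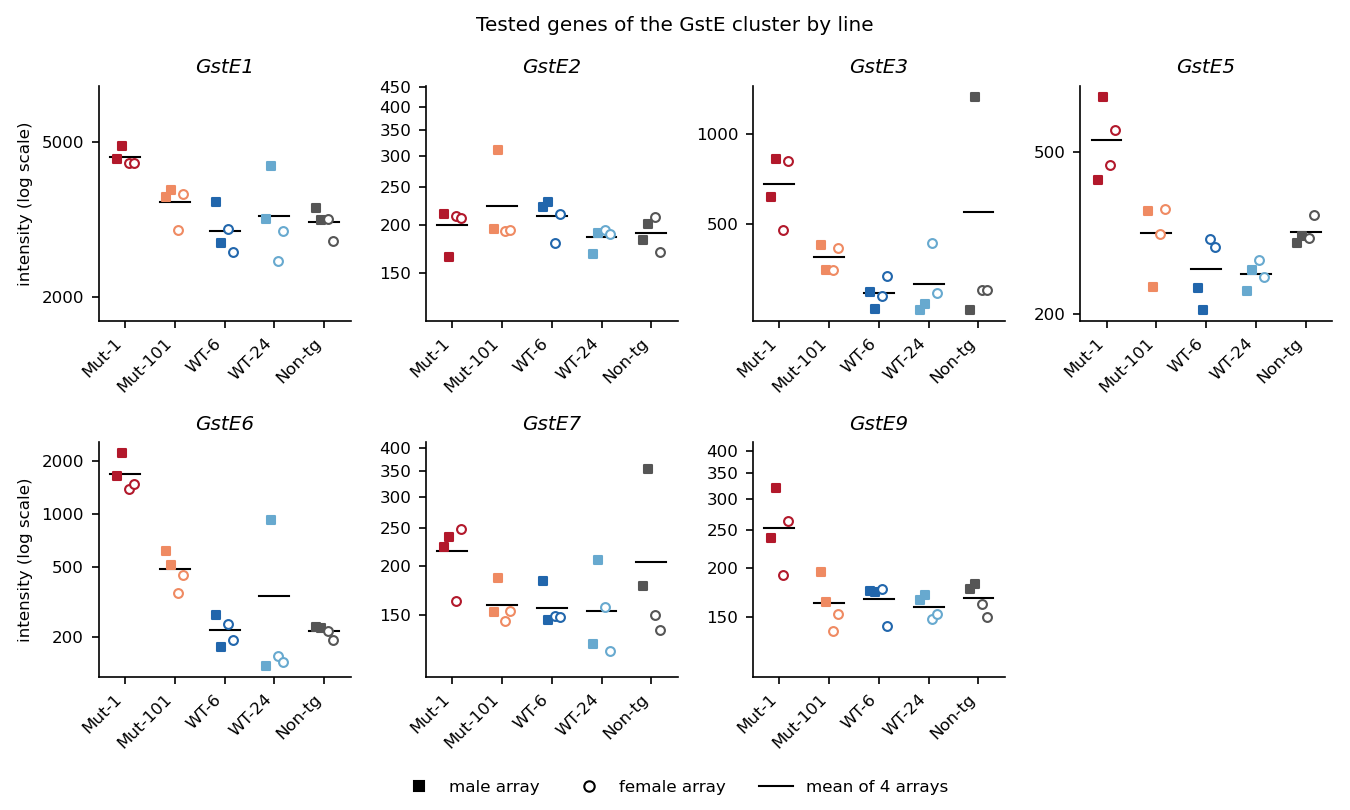
Intensity on a log scale of the 7 tested GstE cluster genes in each of the 20 arrays, by line, with males as filled squares, females as open circles and the mean of 4 arrays as a bar. Mut-1 lies highest for GstE1, GstE5 and GstE6, GstE2 is level, and single arrays stand apart at 926 units of GstE6 in WT-24 and 1334 units of GstE3 in non-transgenic discs.

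The 3 epsilon genes outside the cluster varied little. In C96Y discs GstE11 lay between 5556 and 6105 units (median 5789.8), against 5517 to 5928 units (median 5692) in wild-type proinsulin discs. GstE12 had 5719 to 7047 units (median 6717) in C96Y discs and 6311 to 7077 units (median 6419) in wild-type proinsulin discs. GstE13 had 5487 to 5859.6 units (median 5731) in C96Y discs and 5639 to 6279.9 units (median 5797) in wild-type proinsulin discs. The groups overlapped for all 3, and none was called in any comparison.

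Genes that flank the cluster were read for comparison, 8 protein-coding genes on each side in a reference gene order, a window chosen after the cluster's values were known. Of these, 8 were tested. In Mut-1 over wild-type lines none was called by limma, with log2 fold changes between -0.18 and 0.13, while GstE6 had 2.89. In C96Y over wild-type proinsulin discs 1 was called, PIG-O, a gene of glycosylphosphatidylinositol anchor synthesis, at 0.13 ± 0.04 (SE), adjusted p = 0.0496 (limma). The flanking genes were compared with the cluster by these values alone.

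**Figure D3:**
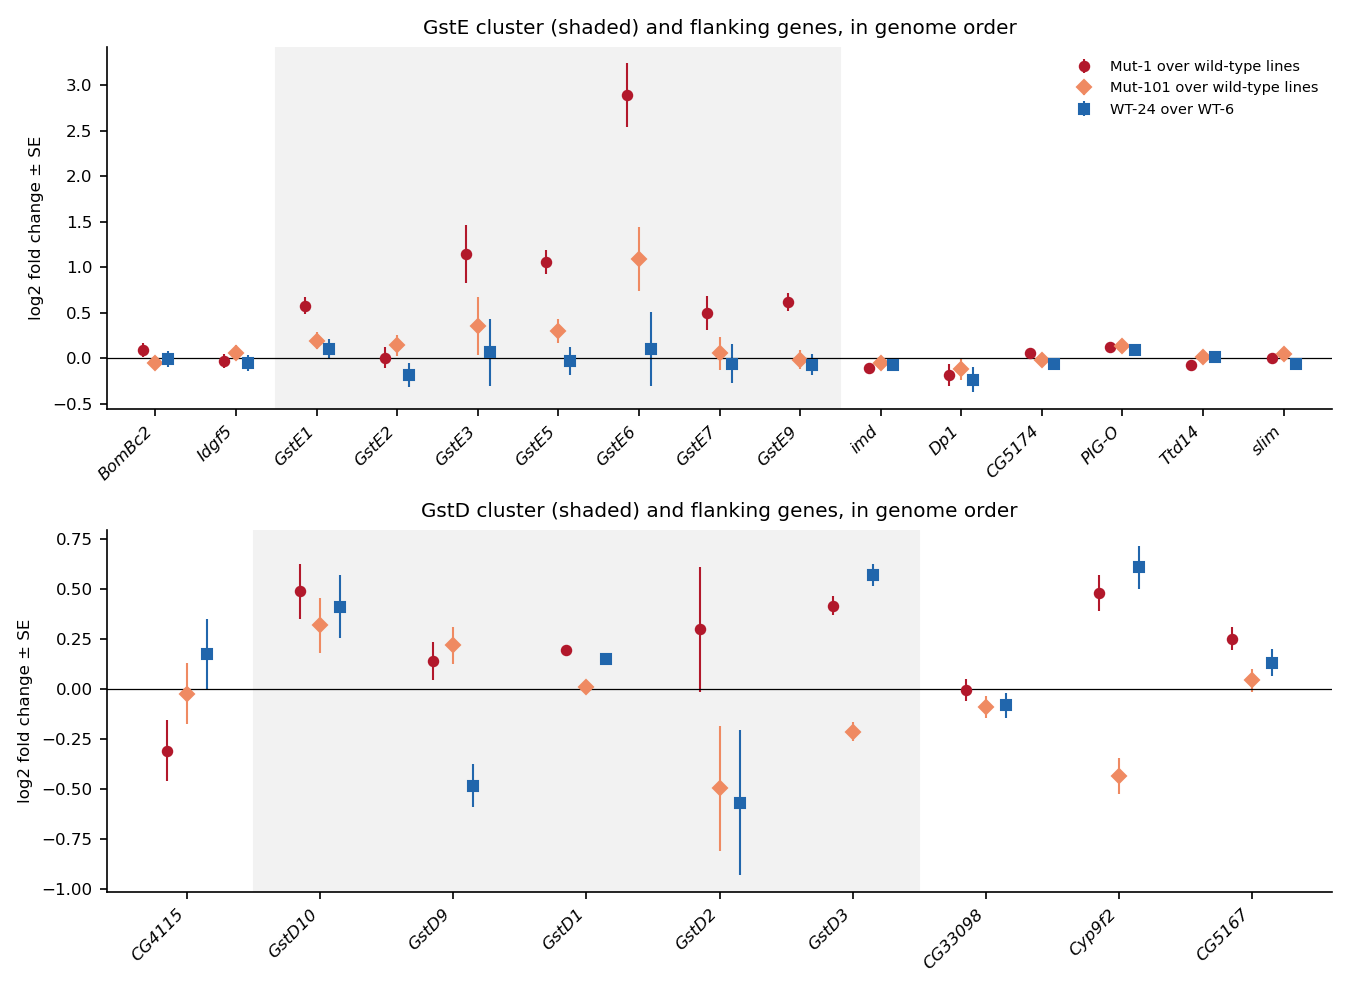
Log2 fold change with its SE of the tested genes of the GstE cluster (upper) and the GstD cluster (lower), shaded, and of tested flanking genes, in genome order, for Mut-1 and Mut-101 over wild-type lines and for WT-24 over WT-6. In the upper panel the flanking genes stay between -0.23 and 0.13, and in the lower panel Cyp9f2, outside the shaded cluster, lies high in Mut-1 and WT-24 as GstD3 does.

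The delta genes lie together on chromosome arm 3R, and 5 of 11 were tested. In C96Y over wild-type proinsulin discs 2 of them rose, GstD1 and GstD10, and none fell, where 11.5% of all probe sets were called higher and 8.58% lower. GstD1 and GstD3 differed between lines of the same protein. Mut-1 and WT-24 were high, and Mut-101 and WT-6 were low. Between WT-24 and WT-6, which carry the same wild-type protein, 3 members were called, GstD3 and GstD1 higher and GstZ1 lower in WT-24, where 0.955% of all probe sets were called (0.594% higher, 0.361% lower).

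GstD3 showed this most clearly. Mut-1 discs had 6251, 6355, 6324 and 6257 units and Mut-101 discs 4343, 4127, 3786 and 4025 units, against 3794, 3846, 4122 and 3698 units in WT-6 discs, 5999.7, 6147, 5138 and 5737 units in WT-24 discs and 4392, 5186, 4673 and 5058 units in non-transgenic discs. Mut-1 lay above all other arrays, WT-24 lay above Mut-101 and WT-6, and Mut-101 and WT-6 overlapped each other below all non-transgenic arrays. GstD3 was higher in Mut-1 than in Mut-101 by 0.63 ± 0.05 (SE), adjusted p = 2.21e-05, and higher in WT-24 than in WT-6 by 0.57 ± 0.05 (SE), adjusted p = 0.000221 (limma). It was called higher in Mut-1 over wild-type lines, 0.42 ± 0.05 (limma, adjusted p = 4.76e-05), and lower in Mut-101 over wild-type lines, -0.21 ± 0.05 (limma, adjusted p = 0.0171). With both lines of each protein averaged it was not called, 0.10 ± 0.04 (SE), adjusted p = 0.0761. The Mut-101 value of GstD3 turned to 0.074 without WT-24, and the Mut-1 value was 0.13 and not called without WT-6. The Mut-101 call was also lost without Mut-101 male replicate 2 or Mut-101 female replicate 1 (adjusted p up to 0.0718).

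GstD1, an enzyme that acts on DDT and on 4-hydroxynonenal, was high in the same lines with smaller steps. Mut-1 discs had 14100.0, 14367, 13620.3 and 13178 units and Mut-101 discs 12748, 12748, 11699 and 11469 units, against 11432, 11725, 11554 and 11097 units in WT-6 discs, 12994, 12929, 12479.9 and 12431 units in WT-24 discs and 11809.8, 12929, 11960.1 and 12872 units in non-transgenic discs. Mut-1 stood above all other arrays, and WT-24 stood above WT-6. GstD1 rose by 0.10 ± 0.02 (SE), adjusted p = 0.00362, in C96Y over wild-type proinsulin discs. It was higher in Mut-1 than in Mut-101 by 0.18 ± 0.03 (SE), adjusted p = 0.00241, and in WT-24 than in WT-6 by 0.15 ± 0.03 (SE), adjusted p = 0.0232 (limma). Without Mut-1 the C96Y value of GstD1 was 0.01, and without WT-6 it was 0.03, both not called. The call between WT-24 and WT-6 was lost without any 1 of 6 of their 8 arrays, all but WT-6 male replicate 2 and WT-6 female replicate 1 (adjusted p up to 0.133).

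GstD10 lies at the edge of the cluster. Mut-1 discs had 281, 335, 409 and 337 units and Mut-101 discs 291, 429, 231 and 282 units, against 199.96, 203, 177 and 262 units in WT-6 discs, 331, 326, 259 and 213 units in WT-24 discs and 403, 289, 204 and 224 units in non-transgenic discs. The C96Y arrays lay mostly above WT-6 and overlapped WT-24 and the non-transgenic arrays. GstD10 rose by 0.41 ± 0.11 (SE), adjusted p = 0.0228, in C96Y over wild-type proinsulin discs, and its difference from non-transgenic discs was 0.24 ± 0.14 (limma, adjusted p = 0.286). The call was lost without any 1 of 4 arrays, Mut-1 male replicate 2, Mut-101 female replicate 2, WT-6 female replicate 1 or WT-24 female replicate 2, with adjusted p up to 0.0604.

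GstD9 ran the other way between the wild-type lines. Mut-1 discs had 1185, 1203, 1324 and 1139.9 units and Mut-101 discs 1371, 1185, 1198 and 1369 units, against 1226, 1222, 1452 and 1302 units in WT-6 discs, 932, 1127, 798 and 886 units in WT-24 discs and 1291, 986, 1188 and 914 units in non-transgenic discs. All 4 WT-24 arrays lay below all 4 WT-6 arrays, a difference of -0.48 ± 0.11 (SE), adjusted p = 0.0596, which missed the threshold. GstD2, the remaining tested delta gene, had 298, 259, 202 and 246 units in Mut-1 discs and 145, 104, 129.8 and 215 units in Mut-101 discs, against 164, 282, 129.9 and 612 units in WT-6 discs, 159, 156, 162 and 191 units in WT-24 discs and 147, 201, 158 and 178 units in non-transgenic discs. Its spread was set by WT-6 female replicate 2, and it was not called in any comparison.

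Cyp9f2, a cytochrome P450 gene beside the GstD cluster chosen after its values were seen, was high in the same lines as GstD3. It had 1039, 1012, 851 and 867 units in Mut-1 discs and 510.4, 501, 494 and 484 units in Mut-101 discs, against 618, 496, 520.3 and 549 units in WT-6 discs, 766, 877, 827 and 855 units in WT-24 discs and 633, 948, 595 and 591 units in non-transgenic discs. Mut-1 and Mut-101 did not overlap, nor did WT-24 and WT-6. Cyp9f2 was higher in Mut-1 than in Mut-101 by 0.92 ± 0.11 (SE), adjusted p = 0.000295, and in WT-24 than in WT-6 by 0.61 ± 0.11 (SE), adjusted p = 0.0109 (limma). Of the 4 flanking genes tested beside the GstD cluster, Cyp9f2 was the one called in each of these comparisons. In Mut-1 over wild-type lines 2 of the 4 were called higher, Cyp9f2 at 0.48 and CG5167 at 0.25, and in C96Y over wild-type proinsulin discs 1 was, CG5167 at 0.15. For Cyp9f2 the difference between C96Y and wild-type proinsulin discs was 0.02 ± 0.07 (limma, adjusted p = 0.857). Each protein was represented by 2 lines, so transgene and line cannot be told apart.

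**Figure D4:**
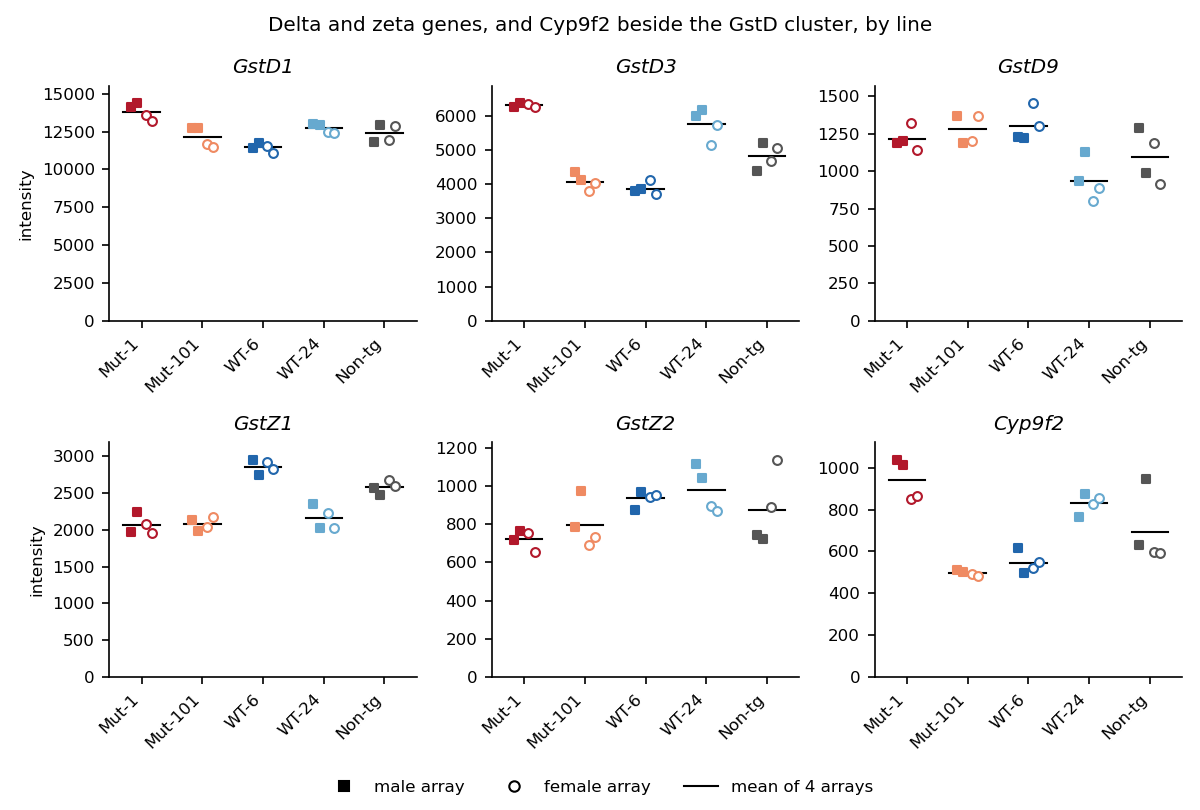
Intensity from 0 of the delta genes GstD1, GstD3 and GstD9, the zeta genes GstZ1 and GstZ2, and Cyp9f2 in each of the 20 arrays, by line, with males as filled squares, females as open circles and the mean of 4 arrays as a bar. GstD3 and Cyp9f2 are high in Mut-1 and WT-24, and GstZ1 is highest in WT-6, at 2743 to 2955 units.

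The zeta genes fell in C96Y discs and in each C96Y line. GstZ1 and GstZ2 are neighbours on chromosome arm 3R and encode maleylacetoacetate isomerases. GstZ1 had 1968, 2243, 2085 and 1961 units in Mut-1 discs and 2140.1, 1989, 2045 and 2171 units in Mut-101 discs, against 2955, 2743, 2921 and 2824 units in WT-6 discs, 2348, 2019, 2234 and 2021 units in WT-24 discs and 2565, 2473, 2684 and 2591 units in non-transgenic discs. The C96Y arrays lay below all WT-6 and all non-transgenic arrays and overlapped WT-24.

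The log2 fold change of GstZ1 in C96Y over wild-type proinsulin discs was -0.26 ± 0.04 (SE), adjusted p = 0.00102 (limma), 1.2-fold lower. Against non-transgenic discs its log2 fold change was -0.31 ± 0.05 (SE), adjusted p = 0.0018, and Mut-1 and Mut-101 over wild-type lines gave -0.27 ± 0.05 and -0.25 ± 0.05 (limma, adjusted p = 0.00301 and 0.0122). The wild-type lines differed too, with WT-24 over WT-6 at -0.41 ± 0.06 (SE), adjusted p = 0.00307 (limma). Without WT-6 the C96Y value of GstZ1 was -0.05, adjusted p = 0.56 (limma), and those of Mut-1 and Mut-101 were -0.06 and -0.04, both not called. The Mut-101 call was also lost without Mut-101 male replicate 2 or Mut-101 female replicate 1 (adjusted p up to 0.0599).

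GstZ2 had 718, 764, 754 and 654 units in Mut-1 discs and 784, 974, 693 and 733 units in Mut-101 discs, against 876, 966, 942 and 954 units in WT-6 discs, 1113, 1041, 897 and 867 units in WT-24 discs and 746, 721, 891 and 1138 units in non-transgenic discs. Of the C96Y arrays, 1 in Mut-101 reached into the wild-type range, and the others lay below every wild-type proinsulin array. Its log2 fold change in C96Y over wild-type proinsulin discs was -0.34 ± 0.06 (SE), adjusted p = 0.00225, with no call between WT-24 and WT-6, 0.06 ± 0.09 (SE), adjusted p = 0.919. Without Mut-1 it was -0.27 and not called. Mut-101 over wild-type lines gave -0.27 ± 0.08 (limma, adjusted p = 0.0452), a call lost without any 1 of 14 of the 20 arrays. The non-transgenic arrays spanned both ranges, and the difference from them, -0.19 ± 0.08 (SE), adjusted p = 0.127, was not called. It was called in females alone, at -0.51 ± 0.11 (SE), adjusted p = 0.0407, and had the other sign in males alone, at 0.13 ± 0.10 (SE), adjusted p = 0.621 (limma). Of the other tyrosine breakdown genes, Faa and Tat were tested, at 0.09 ± 0.10 and 0.05 ± 0.05, and neither was called (limma, adjusted p = 0.564 and 0.603).

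GstT3, a theta gene, was higher in both kinds of transgenic discs than in non-transgenic discs, and higher in females than in males. Against non-transgenic discs, wild-type proinsulin discs had 1 called member, GstT3, where 0.107% of all probe sets were called (0.0487% higher, 0.0585% lower). At an unadjusted p under 0.05 there were 3 members, GstT3, GstT1 and GstE5. C96Y discs had 5 called members, 4 higher and 1 lower, where 11.5% of all probe sets were called (6.8% higher, 4.75% lower). They were GstT3, GstT1, GstE6, GstE1 and, lower, GstZ1. These comparisons share the 4 non-transgenic arrays.

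GstT3 lies on the X chromosome. Mut-1 discs had 962, 978, 2319 and 1536 units and Mut-101 discs 866, 853, 2127 and 2017 units, against 742, 809.9, 1826 and 2129 units in WT-6 discs, 949, 789, 1929.7 and 1954 units in WT-24 discs and 555, 647, 828 and 964 units in non-transgenic discs. Within each sex all 8 transgenic arrays lay above both non-transgenic arrays, and in every line both female arrays lay above both male arrays. GstT3 was higher in C96Y than in non-transgenic discs by 0.88 ± 0.10 (SE), adjusted p = 8.55e-05, and higher in wild-type proinsulin than in non-transgenic discs by 0.79 ± 0.10 (SE), adjusted p = 0.00574 (limma). C96Y and wild-type proinsulin discs differed by 0.09 ± 0.08, which was not called (limma, adjusted p = 0.493). For wild-type proinsulin the difference was 1.13 ± 0.15 (SE), adjusted p = 0.047, in females alone, and 0.45 ± 0.10 (SE), adjusted p = 0.556, in males alone. It was 0.79 ± 0.13 (SE), adjusted p = 0.0594, without the 4 arrays with the most ring gland transcripts.

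Males had less GstT3 than females. The median was 831 units in the 10 male arrays (range 555 to 978) and 1942 units in the 10 female arrays (828 to 2319). Male over female gave a log2 fold change of -1.06 ± 0.07 (SE), adjusted p = 6.9e-07 (limma), 2.09-fold lower in males. The sexes overlapped only through the non-transgenic females. Split by transgene, the male over female difference was -1.19 ± 0.08 (SE), adjusted p = 1.03e-06, in the 4 transgenic lines, where 14.9% of all probe sets were called, and -0.58 ± 0.16 (SE), adjusted p = 0.179, in non-transgenic discs, where 0.429% were called. The difference between these differences, a comparison added after the values were seen, was -0.61 ± 0.18 (limma, adjusted p = 0.251) and was not called, where 0.0195% of all probe sets were called.

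Over the family, male against female called 3 of 25 members, where 12.3% of all probe sets were called (7.76% higher, 4.56% lower). Besides GstT3 they were GstT4, higher in males, and GstD1, higher in males. Markers of other tissues differed between the sexes as well, with 2 of 5 muscle markers (4 at an unadjusted p under 0.05, median log2 fold change 0.67), 1 of 4 glial and 1 of 5 neuroblast markers higher in males and 1 of 11 eye disc markers lower (limma). Their part in the GST values was not tested. GstT4, also X-linked, had a median of 1864 units in males (range 1499 to 2292) and 1508 units in females (1089.9 to 1834), and its log2 fold change was 0.32 ± 0.09 (SE), adjusted p = 0.0413. The sexes overlapped. For GstD1 the difference was 0.06 ± 0.02 (limma, adjusted p = 0.0438), and it became -0.036 when arrays were centred on their medians. That centring moved the share of higher among all male over female calls to 14%, against 63% as reported. Among 1359 tested X-linked genes, 153 were higher and 291 lower in males, with a median log2 fold change of -0.02. GstT3 was thus among the genes lower in males and GstT4 among those higher. The GstT4 call was lost without any 1 of 13 arrays and that of GstD1 without any 1 of 16.

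GstT1 and GstT2 lie on chromosome arm 2R. GstT1 had 4589, 4644, 4781 and 4409 units in Mut-1 discs and 4747, 4648, 4731 and 4941 units in Mut-101 discs, against 4293, 4495, 4877 and 4436 units in WT-6 discs, 4696, 4944, 4273 and 4773 units in WT-24 discs and 4471, 4183, 4322 and 3692 units in non-transgenic discs. The Mut-101 arrays lay above all non-transgenic arrays, and the other lines overlapped them. GstT1 rose by 0.17 ± 0.05 (SE), adjusted p = 0.0318, in C96Y over non-transgenic discs, and the wild-type proinsulin difference of 0.14 ± 0.05 was not called (limma, adjusted p = 0.561). The call was lost without any 1 of 6 arrays, Mut-1 male replicate 2, Mut-1 female replicate 1, Mut-101 male replicate 1, Mut-101 female replicate 2, non-transgenic male replicate 2 or non-transgenic female replicate 2, with values of 0.12 to 0.23 and adjusted p up to 0.172. GstT2 was not called in any comparison.

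**Figure D5:**
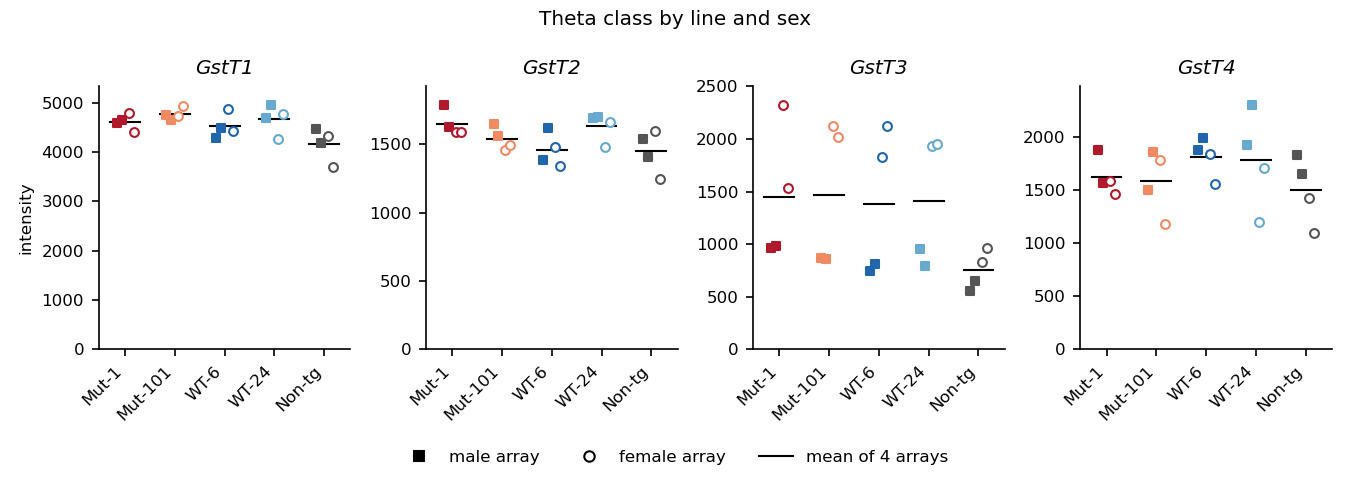
Intensity from 0 of the 4 theta genes in each of the 20 arrays, by line, with males as filled squares, females as open circles and the mean of 4 arrays as a bar. For GstT3 the transgenic females lie at 1536 to 2319 units and the transgenic males at 742 to 978 units, and the non-transgenic discs lie below the transgenic discs of their sex.

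The effect of C96Y did not differ detectably between the sexes for any member. In the test of that difference limma called 0 of 25 members and 0 of 10263 probe sets, with 0 members and 341 probe sets at an unadjusted p under 0.05. For GstE6 the male minus female difference of the C96Y effect was -0.18 ± 0.57, and it turned to 0.51 ± 0.22 without WT-24 male replicate 2, where 1 member was at an unadjusted p under 0.05 and none was called (limma, adjusted p = 0.999). For GstE3 it was 0.40 ± 0.52. The second GstE9 probe set, which is not in the count of members, gave 0.40 ± 0.18 (SE), adjusted p = 0.999 (limma), and was below an unadjusted p of 0.05.

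The omega and sigma genes were not called in any comparison of all arrays. Omega enzymes reduce dehydroascorbate and include the eye pigment enzyme encoded by se, and GstS1 is an abundant sigma enzyme of muscle that conjugates 4-hydroxynonenal. GstO3 had 6813, 7071, 6528 and 6444 units in Mut-1 discs and 7751, 7544, 7319 and 7107 units in Mut-101 discs, against 7020.1, 6815, 6747 and 7127 units in WT-6 discs, 7889, 7143, 7755 and 7754 units in WT-24 discs and 6628, 8050.3, 7455 and 7768 units in non-transgenic discs. Mut-1 lay below Mut-101 and WT-24 lay above WT-6 without overlap, but neither difference was called, at -0.15 ± 0.05 (SE), adjusted p = 0.157 and at 0.14 ± 0.05 (SE), adjusted p = 0.394 (limma). In females alone GstO3 was called lower in Mut-1 over wild-type lines, at -0.18 ± 0.03 (SE), adjusted p = 0.0269, and in C96Y over non-transgenic discs, at -0.15 ± 0.03 (SE), adjusted p = 0.0467, while in males alone these values were -0.05 ± 0.07 and -0.0039 ± 0.07, not called (limma). GstS1 differed by 0.00 ± 0.03 between C96Y and wild-type proinsulin discs, GstO1 by 0.02 ± 0.04 and GstO2 by -0.06 ± 0.03. The second probe set of GstO2 gave 0.01 ± 0.06, and none of these was called.

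Other genes of the glutathione system were read from fixed lists. Of 8 tested genes for glutathione synthesis, recycling and NADPH supply, 2 rose and 2 fell in C96Y over wild-type proinsulin discs. In this comparison 20.1% of all probe sets were called, and the counts of this and the following lists stand beside that share. Men, the malic enzyme gene, rose by 0.36 ± 0.11 (SE), adjusted p = 0.0303, and Idh, for the NADP-dependent isocitrate dehydrogenase, by 0.09 ± 0.02 (SE), adjusted p = 0.00567 (limma). Trx2, a thioredoxin gene, and Grx1, a glutaredoxin gene, had log2 fold changes of -0.10 ± 0.02 and -0.15 ± 0.05 (limma, adjusted p = 0.00342 and 0.0441). Of 4 other GST and peroxidase genes, 1 fell, eEF1gamma, an elongation factor subunit with a GST-like domain, at -0.07 ± 0.02 (limma, adjusted p = 0.0198). Of 5 tested peroxiredoxin, superoxide dismutase and catalase genes, 1 rose, the mitochondrial Sod2, at 0.10 ± 0.03 (limma, adjusted p = 0.0263).

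Of the 4 genes listed for the cap-n-collar response, 1 rose, ref(2)P, which encodes the fly p62 autophagy adaptor. It had 2521, 2946, 2347 and 2791 units in Mut-1 discs and 2427, 2354, 2356 and 2424 units in Mut-101 discs, against 1835, 1961, 1885 and 1991 units in WT-6 discs, 1893, 2004, 2149 and 2064 units in WT-24 discs and 1951, 2097, 2026 and 1989 units in non-transgenic discs. Every C96Y array lay above every other array, which held for no GST gene, and the log2 fold change over wild-type proinsulin discs was 0.35 ± 0.04 (SE), adjusted p = 0.000113 (limma). The transcripts of cnc, of its inhibitor Keap1 and of its partner maf-S gave 0.05 ± 0.03, 0.06 ± 0.06 and -0.03 ± 0.03, and none was called.

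Among the genes that act before and after conjugation, 2 of 13 tested P450 genes were called, 1 in each direction, and 2 of 5 tested export transporters rose. Cyp4p1, a P450 gene, had 2208, 3007, 1995 and 2304 units in Mut-1 discs and 1496, 1411, 1306 and 1297 units in Mut-101 discs, against 740.1, 885, 899.9 and 921 units in WT-6 discs, 701, 841, 824 and 679 units in WT-24 discs and 848, 764, 850.5 and 790.1 units in non-transgenic discs. All C96Y arrays lay above all others, at a log2 fold change of 1.16 ± 0.07 (SE), adjusted p = 2.71e-07, over wild-type proinsulin discs (limma). Cyp4ac3 fell, at -0.22 ± 0.07 (limma, adjusted p = 0.0338).

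Mrp4, an ABC transporter gene, had 679, 878, 393 and 578 units in Mut-1 discs and 195, 161, 186 and 194 units in Mut-101 discs, against 93.2, 93.8, 103 and 134 units in WT-6 discs, 165, 171, 268 and 244 units in WT-24 discs and 162, 175, 139.8 and 136 units in non-transgenic discs. Mut-1 was above all other lines, and Mut-101 overlapped WT-24. WT-24 was above WT-6, by 0.99 ± 0.13 (SE), adjusted p = 0.00154. Mrp4 rose by 1.18 ± 0.09 (SE), adjusted p = 1.58e-06, in C96Y over wild-type proinsulin discs, with Mut-1 above Mut-101 by 1.73 ± 0.13 (SE), adjusted p = 9.78e-06 (limma). Mdr65, a transporter gene of the glial blood-brain barrier, rose by 0.62 ± 0.13 (SE), adjusted p = 0.00437. The glial marker moody, a receptor gene of the same barrier, was also higher, at 0.51 ± 0.06 (limma, adjusted p = 7.67e-05). Of the 4 glial markers tested, 1 was higher and 1 lower, and the summed intensity of the 5 on the array was 11556 to 13503 units in C96Y discs and 11127 to 13168 units in wild-type proinsulin discs. The part of glia in these values was not tested.

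Markers of other tissues also differed between C96Y and wild-type proinsulin discs. Of 6 haemocyte markers 1 rose and 1 fell in C96Y over wild-type proinsulin discs, and both tested tracheal markers fell. Their summed intensities were 8788 to 11716 units in C96Y arrays and 6775 to 12114 units in wild-type proinsulin arrays for haemocytes, and 6012 to 7915 units and 7193 to 9490 units for trachea. The wild-type lines differed in such markers too. In WT-24 over WT-6, 1 haemocyte marker, NimC1, was lower at -2.28 and 1 tracheal marker, serp, at -0.34, where 0.361% of all probe sets were lower. Of 11 eye disc markers 5 fell, among them pros, elav and gl, and 1 rose. By line, 5 of 11 fell in Mut-1 over wild-type lines and 0 of 11 were called in Mut-101 over wild-type lines (limma, 1 at an unadjusted p under 0.05). Of 5 tested neuroblast markers 1 fell. No fat body, ring gland or muscle marker was called. The part of these tissues in the GST values was not tested.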

How the data were processed

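RNA of 20 eye disc samples was amplified and hybridised to 1 single-colour expression array each. The deposited values are probe set intensities on a linear scale that the authors computed with MAS5, per the submitters' processing notes, and the scaling target is not given in the sources used here. They were used as deposited, and log2 was taken. Of 17105 probe sets, 1 per gene plus those without a single gene name, the upper 60% by mean, 10263, were fitted in limma 3.58.1 (R 4.3.3) with a term for each line and sex. The fit was tested on simulated data. Symbols were updated by Entrez number in a RefSeq gene table, which matched 33 of 33 members. Chromosome arms and the order of genes by start position came from the same table. No coordinates are given because the array's build is not stated. GstE8 is not analysed here.

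The members and lists were chosen with earlier results of these data known. Values by array are given for members called in C96Y over wild-type proinsulin, for up to 6 of smallest p in each other comparison, and for up to 4 genes of each other list, and other genes singled out were chosen after their values were seen. Alternatives changed the scaling, the offset, the filter, replicate blocks and the lines, sexes or arrays used, and those without fat body or ring gland arrays were added after seeing the data. Cross-hybridisation between close paralogs was not tested. The number of arrays limits the precision.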

Additional observations from a re-analysis of the deposited data

Results flagged for a closer look

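Each line's 4 arrays were searched for a value far from the other 3, over 25 tested members and 5 lines. Of 125 groups 8 held such a value, where chance flags about 5%, or 1 in 20, so that the count lies near that share. The 5% assumes 4 values of the same kind, while each group held arrays of both sexes. All 8 lay in genes of the GstE cluster. GstE6 had 926 units in WT-24 male replicate 2, against 137 to 158 units in the other WT-24 arrays. GstE3 had 1334 units in non-transgenic male replicate 2, against 258 to 301 units. GstE1 had 2975 units in Mut-101 female replicate 1, against 3605 to 3749.8 units. GstE2 stood apart in 3 lines, with 166 units in Mut-1 male replicate 2, against 208 to 213 units in the other Mut-1 arrays, with 311 units in Mut-101 male replicate 2, against 193 to 194 units, and with 168.5 units in WT-24 male replicate 1, against 190 to 194 units. GstE9 had 142 units in WT-6 female replicate 2, against 173 to 177 units, and GstE7 had 182 units in WT-6 male replicate 1, against 145 to 148 units. The GstE6 array was the one with the most ring gland transcripts and the GstE3 array the one with the most fat body transcripts, and the part of those tissues was not tested.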

How the results depend on the processing

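Counts of called members are limma's over 25 tested members unless stated. For C96Y over wild-type proinsulin the 8 became 4 in the upper 40% of probe sets (17 members tested), 1 in males, 4 in females, 2 without Mut-1 and 0 with 1 mean per line. For C96Y over non-transgenic discs the 5 became 2 on arrays centred on their medians, 0 with 1 mean per line (3 at an unadjusted p under 0.05), 1 in males, 3 without Mut-1 and 8 without Mut-101. For wild-type proinsulin over non-transgenic discs the 1 became 0 with 1 mean per line, in males and without the 4 ring gland arrays (3, 3 and 6 members at an unadjusted p under 0.05). For Mut-1 over wild-type lines the 10 became 5 in the upper 40% and 5 in males. For Mut-101 over wild-type lines the 3 became 0 when centred, 0 in males (5 and 4 at an unadjusted p under 0.05) and 1 in females, which was none of the 3 but GstE6, higher. For Mut-1 over Mut-101 the 5 became 2 in the upper 40%, 1 in males and 2 in females. For WT-24 over WT-6 the 3 became 1 when centred, 1 in males, 0 in females (6 at an unadjusted p under 0.05) and 1 without the ring gland arrays. For male over female the 3 became 1 when centred, with 1 mean per line, without Mut-1, without WT-6, without WT-24 and without the 2 fat body arrays. On centred arrays the calls over all probe sets fell as well. They went from 1185 to 330 for C96Y over non-transgenic discs and from 757 to 110 for Mut-101 over wild-type lines. For WT-24 over WT-6 they went from 98 to 43, and for male over female from 1264 to 715. The other counts here stand without the share over all probe sets and are not read as particular to the family. Smaller counts in part of the arrays come with fewer samples, and otherwise the cause was not tested. Leaving out 1 array gave 6 to 10, 3 to 7, 1 to 2, 8 to 12, 0 to 3, 2 to 7, 2 to 4 and 1 to 4 called members in these comparisons in this order, and 0 for the sex difference; the 0 for Mut-101 came without Mut-101 female replicate 1.

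With the replicate block, the number in the sample title left every count within 1.5 times except male over female, 1. The number in the sample description gave 4, 2, 0, 10, 1, 0, 0 and 1 in the same order. The title numbers were not taken to pair the samples, since 14 of 45 correlations of deviations between groups were over 0.1 (range -0.47 to 0.29). These correlations used the title numbers only. Whether the description numbers mark samples that were handled together was not tested. Of 1407 settings over 38 results for single genes, 1159 kept direction and call, 245 lost the call and 3 turned: GstE9 in C96Y over wild-type proinsulin to -0.014 without Mut-1, GstD3 in Mut-101 over wild-type lines to 0.074 without WT-24, and GstD1 in male over female to -0.036 on centred arrays. The share of higher among all calls was 75.5% on centred arrays against 58.9% as reported for C96Y over non-transgenic discs, and 14% on centred and 37.3% on quantile-normalised arrays against 63% for male over female, where centring moved the median of all probe sets by -0.10. The filter kept probe sets down to a geometric mean of 158 units, close to those of GstE9 and GstE7 at 178 and 172 units.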
